A study of Danio rerio with 4 samples.

Results

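The 10 heat shock genes described here are the inducible HSP70 genes *hsp70.1*, *hsp70.2*, *hsp70.3* and *hsp70l*, the HSP90 alpha genes *hsp90aa1.1* and *hsp90aa1.2*, the small heat shock protein gene *hspb1*, the J-domain co-chaperone gene *dnajb1b*, the collagen chaperone gene *serpinh1b* and the heat shock factor gene *hsf1*. They were taken by symbol and make up 10 of the 31388 genes in the 36hpf table and 10 of the 31950 genes in the 72hpf table. The 4 *hsp70* genes were picked because they had few reads in mutant-labelled eyes at 36hpf, with no stated cut-off, so their values at that stage are a description and nothing is read from them. No such selection is stated for the other 6 genes.

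Cells make heat shock proteins when their proteins unfold. The factor Hsf1 binds heat shock elements in the promoters of genes for HSP70, HSP90 alpha, small heat shock proteins and their J-domain partners, and these chaperones hold, refold or pass on the unfolded proteins. Several of them also serve development without any heat: transcripts of inducible *hsp70* are known from the forming lens of unheated zebrafish embryos, *hsp90aa1.1* from their skeletal muscle, and Serpinh1 folds collagen in the endoplasmic reticulum of collagen-secreting cells.

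The study asked what the DNA dioxygenases Tet2 and Tet3, which oxidise 5-methylcytosine, do in the zebrafish retina. RNA was sequenced from whole eyes dissected from untreated embryos of the TL strain, as 1 sample for each genotype and stage. The mutants were homozygous for the frameshift alleles *tet2* au59 and *tet3* au60 (*tet2*-/-;*tet3*-/-) and were collected at 36hpf and 72hpf (hours post fertilization). At both stages they were set against phenotypically wild-type siblings from crosses between double heterozygotes, which can therefore carry either mutant allele. The methods name 100 eyes per stage, pooled and captured by their poly-A RNA, so a library stands for a pool of embryos and there is no replicate check for any difference given here.

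At 36hpf the tables held 106912677 reads for mutant-labelled and 88875538 for sibling-labelled eyes. Each value at this stage is the sum of 2 whole counts, whose origin (repeat runs or separate libraries) no source used here gives. The 72hpf values are FPKM (fragments scaled by transcript length and library size), and the depth of those libraries is unknown. Among 821 genes listed under 0.1 FPKM in both 72hpf libraries, the most frequent ratio of mutant-labelled over sibling-labelled FPKM was 1.35 (135 genes), the ratio a deeper sibling-labelled library would give, but the other genes spread widely around it. The targeted gene *tet2* had 12459 reads in mutant-labelled and 9646 in sibling-labelled eyes at 36hpf, and 34.1 and 33.6 FPKM in mutant-labelled and sibling-labelled eyes at 72hpf. *tet3* had 8611 reads in mutant-labelled and 8381 in sibling-labelled eyes at 36hpf, then 37.9 FPKM in mutant-labelled and 55.9 FPKM in sibling-labelled eyes. Scaled as given below, *tet3* was lower in mutant-labelled eyes at 36hpf, with a log2 fold-change of -0.26 (counting interval -0.3 to -0.21). The log2 fold-change of *tet2* at 36hpf was 0.07 (0.04 to 0.11). Because *tet2* was not lower, the libraries are called mutant-labelled and sibling-labelled throughout, and these values alone settle nothing about the labels. The eye field gene *rx1* was abundant in all 4 libraries (39274 reads in mutant-labelled and 25134 in sibling-labelled eyes, then 44.5 FPKM in mutant-labelled and 81.7 FPKM in sibling-labelled eyes). Of 22 epidermis and hatching gland genes measured at 36hpf, 21 were at least 1 log2 unit higher in mutant-labelled eyes, against 8.9% of all genes kept. Their list had a median of 1.96 and 1089231 reads in mutant-labelled against 228247 in sibling-labelled eyes. At 72hpf 4 of 17 (*cyt1*, *cyt1l*, *anxa1c* and *icn*) were at least 1 log2 unit higher, against 3.65% of all genes kept. At that stage *anxa1b* was at least 1 lower, against 9.02% of all genes kept, and the list's median was 0.26. Below, RPM are whole reads per 1000000 reads of a library size corrected for RNA composition (trimmed mean of M-values, TMM), a log2 fold-change at 36hpf compares them with 0.5 reads added, and a log2 difference at 72hpf compares FPKM + 1. The medians over all genes kept were 0.01 at 36hpf and 0.02 at 72hpf.

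The inducible HSP70 genes encode chaperones that bind unfolded proteins with the help of ATP. On the authors' GRCz10 annotation *hsp70.1* (ENSDARG00000029688), *hsp70.2* (ENSDARG00000092362) and *hsp70.3* (ENSDARG00000021924) share a single interval of chromosome 3, positions 25950471 to 26026195, with *atp2a1* and *zgc:162612*. In RefSeq's GRCz12tu annotation these *hsp70* genes follow each other directly, with *foxd7* before them and *atp2a1* after them. *hsp70l* (ENSDARG00000055723) lies alone on chromosome 8, positions 4741890 to 4744644. As near-identical copies these genes can share reads, so how reads were divided among them is uncertain and their sums are given as well.

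In 36hpf eyes transcripts of all 4 *hsp70* genes were scarce in the mutant-labelled library. *hsp70.3* had 37 reads in mutant-labelled eyes (counts of 20 and 17), against 2495 in sibling-labelled eyes (1546 and 949), or 0.343 and 28.3 RPM in mutant-labelled and sibling-labelled eyes. *hsp70l* had 62 reads in mutant-labelled eyes (44 and 18), against 1391 in sibling-labelled eyes (845 and 546), or 0.574 and 15.8 RPM in mutant-labelled and sibling-labelled eyes. Nearly all reads of both genes came from the sibling-labelled library. *hsp70.2* had 9 reads in mutant-labelled eyes (5 and 4), against 397 in sibling-labelled eyes (205 and 192). *hsp70.1* had 1 read in mutant-labelled eyes (1 and 0), against 146 in sibling-labelled eyes (96 and 50). Here too nearly all reads were from sibling-labelled eyes.

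By ratio of scaled reads, *hsp70l* was 27.5-fold lower in mutant-labelled eyes (95% counting interval 21.3- to 36.1-fold), *hsp70.2* 54.1-fold (28.2 to 119), *hsp70.3* 82.7-fold (59.8 to 118) and *hsp70.1* 179-fold (31.6 to 7120). These intervals are exact and cover counting error only, and the wide one for *hsp70.1* rests on its single read. On the log2 scale the changes were -4.77 for *hsp70l*, -5.67 for *hsp70.2*, -6.35 for *hsp70.3* and -6.86 for *hsp70.1*. These are ranks 37, 27, 13 and 8 from the lowest of 21876 genes kept, of which 1.4% were at -2 or less. The genes were picked for low reads in this contrast, so nothing is read from the ranks. For *hsp70.3* the larger counts alone gave -6.65 and the smaller alone -5.86, just outside the counting interval of -6.88 to -5.90. Summed over the family, mutant-labelled eyes held 109 reads and sibling-labelled eyes 4429, a value 49.8-fold lower in mutant-labelled eyes (41.2 to 60.8). The chromosome 3 genes alone gave 47 reads in mutant-labelled and 3038 in sibling-labelled eyes (79.3-fold, 59.5 to 108). In bulk eyes, fewer cells of a type and less RNA per cell cannot be told apart.

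**Figure D1:**
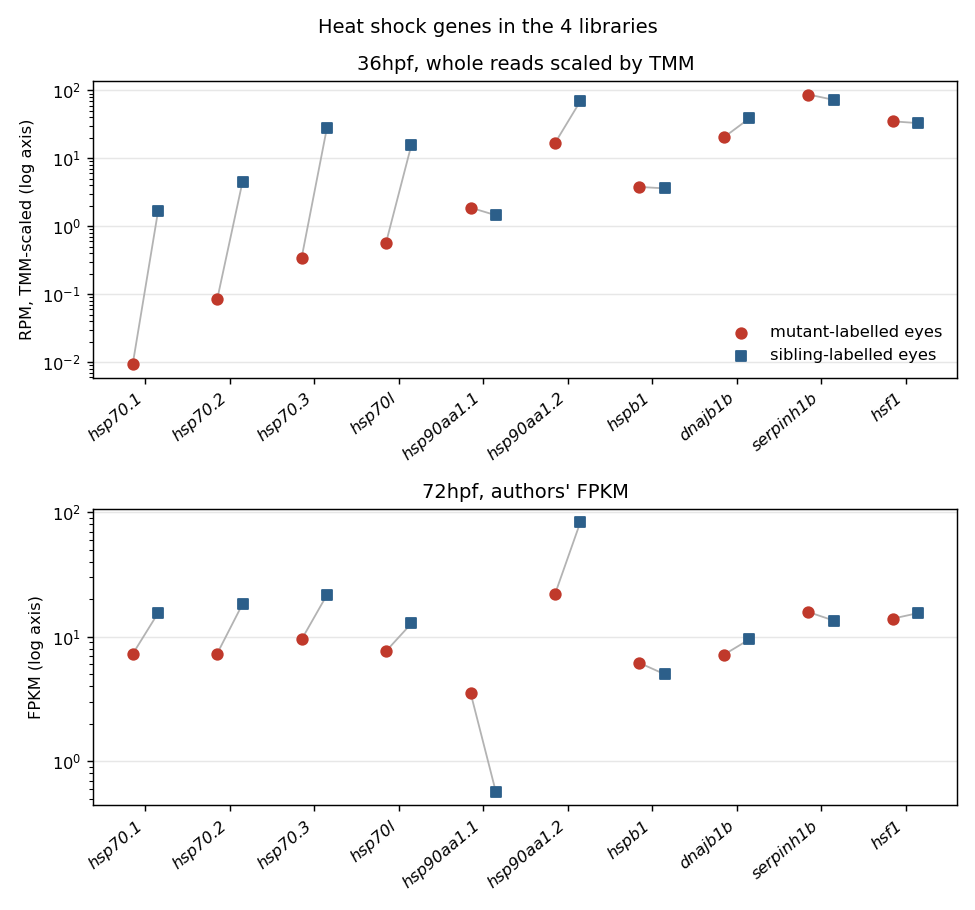
Levels of the 10 heat shock genes in each of the 4 libraries, with mutant-labelled eyes as circles and sibling-labelled eyes as squares, both on log axes: TMM-scaled RPM at 36hpf (upper panel) and the authors' FPKM at 72hpf (lower panel). The *hsp70* genes lay at 0.00926 to 0.574 RPM in mutant-labelled and 1.66 to 28.3 in sibling-labelled eyes at 36hpf, and at 7.27 to 9.52 FPKM in mutant-labelled and 12.8 to 21.7 FPKM in sibling-labelled eyes at 72hpf.

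The 72hpf libraries were not used to pick the *hsp70* genes. There all 4 genes had at least 7.27 FPKM in either genotype and were 1.67- to 2.5-fold lower in mutant-labelled eyes, at a stage where 9.02% of all genes kept had a log2 difference of -1 or less. *hsp70.2* had 7.32 FPKM in mutant-labelled and 18.3 FPKM in sibling-labelled eyes (2.5-fold lower, log2 difference -1.21), and *hsp70.3* had 9.52 FPKM in mutant-labelled and 21.7 FPKM in sibling-labelled eyes (2.28-fold lower, -1.11), so these 2 of the 4 passed -1. *hsp70.1* had 7.27 FPKM in mutant-labelled and 15.5 FPKM in sibling-labelled eyes, 2.13-fold lower and on the log2 scale just short of -1. *hsp70l* had 7.67 FPKM in mutant-labelled and 12.8 FPKM in sibling-labelled eyes (1.67-fold lower, -0.67).

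Per length, the 4 genes stood close together at this stage, within 7.27 to 9.52 FPKM in mutant-labelled and 12.8 to 21.7 FPKM in sibling-labelled eyes, and *hsp70.3* was the highest in both. Neighbours in that order, such as *hsp70.1* and *hsp70.2* in mutant-labelled eyes, cannot be ranked without replicates. Their sum was 31.8 FPKM in mutant-labelled and 68.3 FPKM in sibling-labelled eyes, 2.15-fold lower in mutant-labelled eyes. Whether the difference at 72hpf is smaller than that at 36hpf was not tested, since the stages were processed in different ways and no scaling joins them.

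Most markers of the lens were also lower in mutant-labelled eyes. The *hsp70* genes were picked for low reads at 36hpf, so nothing is read from a shared direction at that stage. At 36hpf 51 of 58 lens genes kept were at -1 or less, where 6.15% of all genes kept lay. At -2 or less were 41, where 1.4% of all genes kept lay (median of the list -3.03). At 1 or more were 2, where 8.9% of all genes kept lay. These were *crybb3* (70 reads in mutant-labelled and 13 in sibling-labelled eyes, 2.1) and *crygs4* (21 and 5, 1.69). The minimum of 20 reads is over both genotypes, and some lens genes reached it through the sibling-labelled library alone. Such were *crygm2d11* (0 reads in mutant-labelled and 50 in sibling-labelled eyes) and *crygm5* (1 and 20), and the counts and median include them. The list summed to 292097 reads in mutant-labelled eyes against 1252003 in sibling-labelled eyes. Of 71 lens genes in the table, 9 were at 0 reads in mutant-labelled eyes (*cryaba*, *crygm1*, *crygm2a*, *crygm2b*, *crygm2c*, *crygm2d11*, *crygm2f*, *crygm6* and *crygm7*), and 4 of these (*crygm1*, *crygm2c*, *crygm6* and *crygm7*) also in sibling-labelled eyes. At 72hpf 25 of 58 lens genes were at -1 or less, where 9.02% of all genes kept lay (median of the list -0.93). Of them 3 (*crybb2*, *crygn1* and *crygm2d14*) were at -2 or less, where 1.77% of all genes kept lay. *crybb2* and *crygn1* were kept through the sibling-labelled library alone. Above 0 lay 6 of the 58, and none was at 1 or more, where 3.65% of all genes kept lay. The list summed to 40400 FPKM in mutant-labelled and 80000 FPKM in sibling-labelled eyes. Listed at 0 there were *cryaba*, *crygm1* and *crygs3* in mutant-labelled eyes, and *cryaba* and *crygm6* in sibling-labelled eyes. The part of the lens in the *hsp70* difference was not tested.

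The genes whose pair of changes lay nearest to the *hsp70* family were sought among 9527 genes. These had at least 100 reads over both genotypes at 36hpf and at least 5 FPKM in either library at 72hpf. Left out were the heat shock genes, symbols on several rows at 72hpf, names with a colon, and gene IDs standing for names. Nearness was the Euclidean distance to the family's median pair of -6.01 at 36hpf and -1.05 at 72hpf. Of the nearest 5, 4 encode gamma M crystallins, structural proteins of the lens fibre cell. *crygm2d18*, at a distance of 0.25, had 168 reads in mutant-labelled and 9930 in sibling-labelled eyes, then 1090 FPKM in mutant-labelled and 2590 FPKM in sibling-labelled eyes. *crygm2d17* (distance 0.35), *crygm2d16* (0.38) and *crygm2d7* (0.38) had changes of -5.71, -5.94 and -6.35 at 36hpf and of -1.23, -1.43 and -1.24 at 72hpf. The remaining gene was *LHX3*, a LIM homeodomain factor of the pituitary and of motor neurons, with 46 reads in mutant-labelled and 2609 in sibling-labelled eyes and then 19.1 FPKM in mutant-labelled and 34.1 FPKM in sibling-labelled eyes (distance 0.27). This likeness is over 2 changes between 4 libraries. It includes the values by which the *hsp70* genes were picked, so nothing is read from it.

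**Figure D2:**
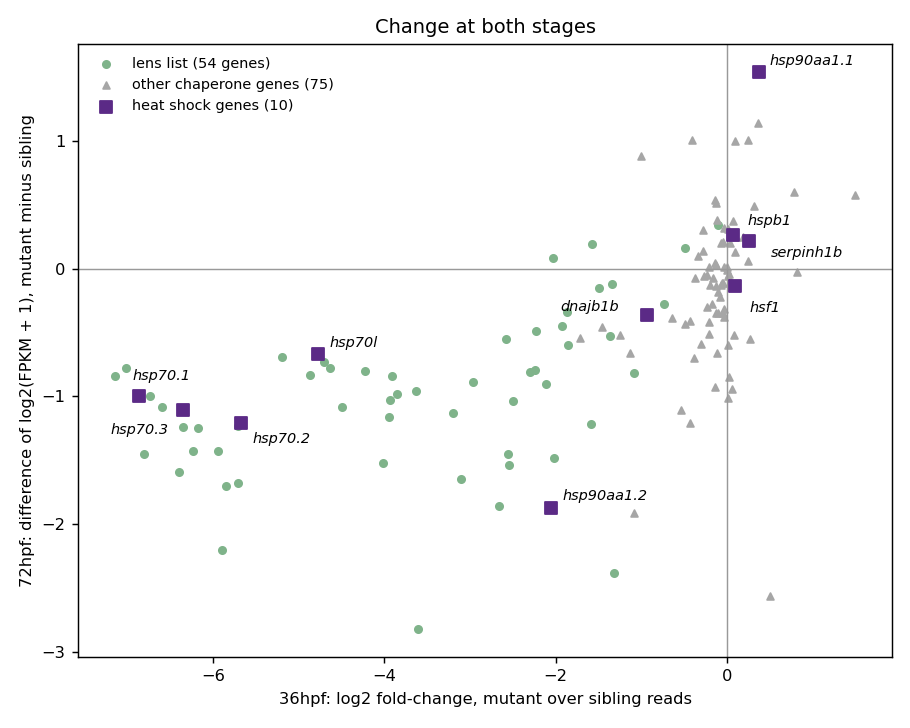
Log2 fold-change at 36hpf (horizontal axis) against the difference of log2(FPKM + 1) at 72hpf (vertical axis), mutant-labelled minus sibling-labelled, for the 10 heat shock genes (squares), 54 lens genes (circles) and 75 other chaperone genes (triangles) kept at both stages. The *hsp70* genes, chosen for low reads at 36hpf, lie among the lens genes at the left, *hsp90aa1.2* lies at -2.05 and -1.87, and *hsp90aa1.1* lies at 0.37 and 1.54, with *hspb7* (0.36 and 1.14) the nearest below it.

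HSP90 alpha chaperones act late in folding, on clients such as kinases and steroid receptors, and in zebrafish the product of *hsp90aa1.1* is needed with Unc45b and Smyd1b to fold myosin. The 2 genes (*hsp90aa1.1*, ENSDARG00000010478, and *hsp90aa1.2*, ENSDARG00000024746) share 1 interval on chromosome 20, positions 54177900 to 54222597, are direct neighbours in RefSeq, and as close copies can share reads. They moved apart. *hsp90aa1.2* had 1818 reads in mutant-labelled eyes at 36hpf (1165 and 653), against 6123 in sibling-labelled eyes (3570 and 2553). The mutant-labelled value of 16.8 RPM was 4.13-fold lower (3.92 to 4.35) than the 69.6 RPM of sibling-labelled eyes, a log2 fold-change of -2.05. At 72hpf *hsp90aa1.2* had 22 FPKM in mutant-labelled and 83.2 FPKM in sibling-labelled eyes, 3.77-fold lower (-1.87). At both stages the genotypes lay far apart, and among all genes of the 72hpf table *hsp90aa1.2* stood at percentile 90.1 in mutant-labelled and 97.6 in sibling-labelled eyes.

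*hsp90aa1.1* had 203 reads in mutant-labelled eyes at 36hpf (139 and 64), against 128 in sibling-labelled eyes (68 and 60), which are 1.88 and 1.45 RPM in mutant-labelled and sibling-labelled eyes. Its log2 fold-change was 0.37 (0.04 to 0.70), but the smaller counts alone gave -0.01 and the larger alone 0.61. The counts are sorted by size within each genotype, and which belong together is unknown. The direction each count gave is therefore unknown too. At 72hpf *hsp90aa1.1* had 3.55 FPKM in mutant-labelled and 0.567 FPKM in sibling-labelled eyes, 6.27-fold higher in mutant-labelled eyes, with a log2 difference of 1.54 at rank 115 from the highest of 17307 genes kept. It passed the minimum of 1 FPKM through the mutant-labelled library alone, so its direction among kept genes was set by that filter. Of all reads of the 2 *hsp90aa1* genes at 36hpf, *hsp90aa1.1* held 10% in mutant-labelled eyes (Clopper-Pearson interval 8.77% to 11.4%, of 2021 reads), against 2.05% in sibling-labelled eyes (1.71% to 2.43%, of 6251 reads). At 72hpf it held 13.9% of their summed FPKM in mutant-labelled and 0.677% in sibling-labelled eyes. Such shares depend on both genes. At 36hpf *hsp90aa1.2* was 4.13-fold lower in mutant-labelled eyes, and *hsp90aa1.1* itself 1.29-fold higher (1.03 to 1.63). Together the 2 genes had 25.6 FPKM in mutant-labelled and 83.7 FPKM in sibling-labelled eyes, 3.27-fold lower in mutant-labelled eyes, against 3.79-fold (3.61 to 3.99) at 36hpf.

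Most skeletal muscle genes were also higher in mutant-labelled eyes at 72hpf. Of 32 kept, 21 were at 1 or more, where 3.65% of all genes kept lay, and 14 of them at 2 or more, where 0.254% lay (median 1.77). The list summed to 442 FPKM in mutant-labelled and 101 FPKM in sibling-labelled eyes. Of the 32, 11 were kept through the mutant-labelled library alone and 1 through the sibling-labelled library alone, so the filter set their direction. The counts and the median include them. *tnni2b.2* was listed at 0 in both libraries. *actc1a*, a sarcomeric actin, had 40.7 FPKM in mutant-labelled and 4.56 FPKM in sibling-labelled eyes, and the creatine kinase gene *ckma* had 28.2 FPKM in mutant-labelled and 3.51 FPKM in sibling-labelled eyes. The myosin-folding partners of *hsp90aa1.1*, named here after their values were seen, had 3.48 FPKM in mutant-labelled and 0.33 FPKM in sibling-labelled eyes (*smyd1b*, 1.75) and 1.4 FPKM in mutant-labelled and 0.306 FPKM in sibling-labelled eyes (*unc45b*, 0.88). Both passed the minimum through the mutant-labelled library alone and are given as values only. At 36hpf the median of the muscle list was below 0 (-0.39). At -1 or less were 8 of 25 genes and at 1 or more *mybpc1* alone, against 6.15% and 8.9% of all genes kept. Several of these 8 had few reads, such as *acta1a* (9 in mutant-labelled and 22 in sibling-labelled eyes) and *ttnb* (9 and 16). The list summed to 8518 reads in mutant-labelled and 8806 in sibling-labelled eyes, of which *atp2a1* alone held 1745 and 4256. *tnni2b.2* was at 0 reads in both libraries and *myhz1.2* at 0 in sibling-labelled eyes. The part of muscle in the *hsp90aa1.1* values was not tested. *atp2a1*, the muscle calcium pump gene beside the chromosome 3 *hsp70* genes, had 1745 reads in mutant-labelled and 4256 in sibling-labelled eyes at 36hpf (-1.58), but 23.3 FPKM in mutant-labelled and 4.94 FPKM in sibling-labelled eyes at 72hpf (2.03), opposite to its *hsp70* neighbours at that stage.

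**Figure D3:**
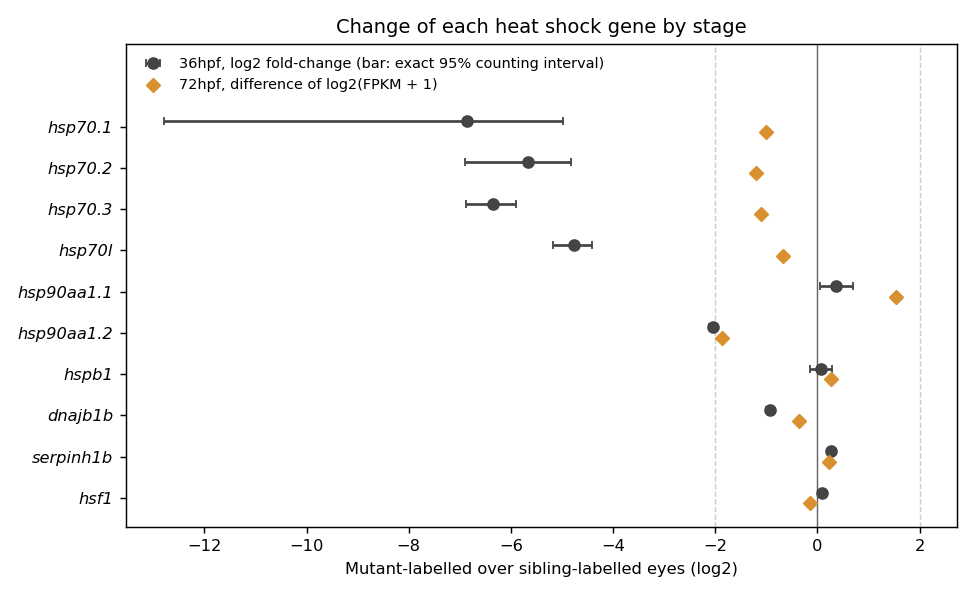
Change of each heat shock gene, mutant-labelled over sibling-labelled eyes on a log2 scale, at 36hpf (circles, with exact 95% counting intervals of the ratio) and at 72hpf (diamonds, difference of log2(FPKM + 1), with no interval). Dashed lines mark -2 and 2. The *hsp70* genes lie at -6.86 to -4.77 and at -1.21 to -0.67, *hsp90aa1.2* at -2.05 and -1.87, and *hsp90aa1.1* at 0.37 and 1.54. For *hsp90aa1.1* the smaller counts alone gave -0.01 at 36hpf, and at 72hpf it was kept through the mutant-labelled library alone.

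The small heat shock protein Hspb1 holds unfolded proteins without using ATP and binds actin filaments. *hspb1* (ENSDARG00000041065, chromosome 5, positions 3238283 to 3255083, an interval that holds 2 genes) differed between the genotypes by less than its counting error at 36hpf. It had 409 reads in mutant-labelled eyes at 36hpf (266 and 143), against 318 in sibling-labelled eyes (189 and 129), or 3.79 and 3.61 RPM in mutant-labelled and sibling-labelled eyes. The log2 fold-change of 0.07 had a counting interval of -0.15 to 0.28. At 72hpf *hspb1* had 6.16 FPKM in mutant-labelled and 5.0 FPKM in sibling-labelled eyes (0.26).

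The J-domain protein Dnajb1 stimulates the ATPase of HSP70 and brings it clients. *dnajb1b* (ENSDARG00000041394, chromosome 1, positions 55052553 to 55072557, an interval of 2 genes) was lower in mutant-labelled eyes at both stages. It had 2200 reads in mutant-labelled eyes at 36hpf (1406 and 794), against 3410 in sibling-labelled eyes (2010 and 1400), or 20.4 and 38.7 RPM in mutant-labelled and sibling-labelled eyes, 1.9-fold lower (1.8 to 2.01, log2 fold-change -0.93). At 72hpf it had 7.18 FPKM in mutant-labelled and 9.52 FPKM in sibling-labelled eyes, 1.33-fold lower (-0.36). Its paralogue *dnajb1a* had 986 reads in mutant-labelled and 1168 in sibling-labelled eyes (-0.54), and 5.26 FPKM in mutant-labelled and 12.5 FPKM in sibling-labelled eyes (-1.11).

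Serpinh1 (Hsp47) binds procollagen in the endoplasmic reticulum. *serpinh1b* (ENSDARG00000019949, chromosome 15, positions 29450291 to 29454673) had 9397 reads in mutant-labelled eyes at 36hpf (5931 and 3466) and 6396 in sibling-labelled eyes (3750 and 2646). Scaled, these are 87.1 and 72.7 RPM in mutant-labelled and sibling-labelled eyes, a log2 fold-change of 0.26 (0.21 to 0.31). At 72hpf it had 15.8 FPKM in mutant-labelled and 13.5 FPKM in sibling-labelled eyes (0.22). By median, collagens and their folding and cross-linking enzymes moved further in the same direction. At 36hpf 7 of 27 were at 1 or more, against 8.9% of all genes kept. The median was 0.43, with 481803 reads in mutant-labelled against 219448 in sibling-labelled eyes. At 72hpf 8 of 25 were at 1 or more, against 3.65% of all genes kept. The median was 0.78, with 1630 FPKM in mutant-labelled against 960 FPKM in sibling-labelled eyes. None of the list was at -1 or less at 36hpf or 72hpf, against 6.15% and 9.02% of all genes kept. The part of collagen-secreting cells in the *serpinh1b* values was not tested. The fibrillar collagen gene *col1a2*, among the highest of the list, had 63164 reads in mutant-labelled and 19041 in sibling-labelled eyes (1.44). Below 0 lay 4 of the 27 at 36hpf and 3 of the 25 at 72hpf. The lowest at 36hpf was *col9a1b*, with 9590 reads in mutant-labelled and 13499 in sibling-labelled eyes (-0.79). At 72hpf the lowest was *p4ha1b* (-0.78).

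*hsf1* (ENSDARG00000008818, chromosome 19, positions 3115551 to 3141370) encodes the master factor of the response, whose activity is set mainly on the protein and not by its transcript level. It had 3791 reads in mutant-labelled eyes at 36hpf (2412 and 1379), against 2902 in sibling-labelled eyes (1696 and 1206). With 35.1 RPM in mutant-labelled and 33.0 in sibling-labelled eyes, its log2 fold-change was 0.09 (0.02 to 0.16). At 72hpf *hsf1* had 14 FPKM in mutant-labelled and 15.5 FPKM in sibling-labelled eyes (-0.14). Its relative *hsf2* was also close between the genotypes, with 4138 reads in mutant-labelled and 3187 in sibling-labelled eyes (0.08), then 36.3 FPKM in mutant-labelled and 29.6 FPKM in sibling-labelled eyes (0.28). *hsf4*, the factor known from lens fibre cells, had 40 reads in mutant-labelled and 283 in sibling-labelled eyes (-3.10, interval -3.63 to -2.64), and 4.59 FPKM in mutant-labelled and 16.6 FPKM in sibling-labelled eyes (-1.65).

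Counted over the 10 genes, 5 were at -2 or less at 36hpf (all 4 *hsp70* genes and *hsp90aa1.2*), where 1.4% of all genes kept lay, and the same 5 were at -1 or less, where 6.15% of all genes lay. None of the 10 was at 1 or more, where 8.9% of all genes lay. Since the *hsp70* genes were picked on this contrast nothing is read from these counts. Of the 6 genes not picked on it, 1 was at -2 or less and their median was 0.08. At 72hpf 3 of the 10 genes were at -1 or less (*hsp90aa1.2*, *hsp70.2* and *hsp70.3*), against 9.02% of all genes kept. With FPKM + 0.1, or with FPKM rescaled to a median ratio of 1, *hsp70.1* joined at -1.08 or -1.01 and 4 genes were at -1 or less. At 1 or more lay 1 gene (*hsp90aa1.1*), against 3.65% of all genes kept. It was kept through the mutant-labelled library alone, so nothing is read from that count, and with at least 5 FPKM the count was 0. The median of the 10 genes was -1.49 at 36hpf and -0.52 at 72hpf. By summed level, the 10 genes had 17927 reads in mutant-labelled and 23706 in sibling-labelled eyes, then 101 FPKM in mutant-labelled and 196 FPKM in sibling-labelled eyes.

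At 36hpf 80 further chaperone, co-chaperone and heat shock factor genes were kept, with a median of -0.12 against 0.01 over all genes kept. Of these, 65 lay within 0.5 log2 units of 0. The share of all genes within that range was not counted, so nothing is read from the 65. At -1 or below lay 8 of the 80, against 6.15% of all genes kept. At 1 or above lay *bag2* alone, against 8.9% of all genes kept. At 72hpf 6 of 78 lay at -1 or below, against 9.02% of all genes kept, and *fkbp5* among them was kept through the sibling-labelled library alone. *hsp90ab1*, *hspb7* and *bag3* lay at 1 or above, against 3.65% of all genes kept (median -0.11), *hspb7* and *bag3* being kept through the mutant-labelled library alone. These shares are near those of all genes kept at 72hpf.

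Other HSP70 relatives lay between -1.09 and 0.78 at 36hpf, the highest being *hspa12b* with 958 reads in mutant-labelled and 454 in sibling-labelled eyes. *hspa8*, the constitutive cytosolic HSP70, had 500216 reads in mutant-labelled and 329911 in sibling-labelled eyes (0.31), and 1750 FPKM in mutant-labelled and 1250 FPKM in sibling-labelled eyes (0.49). Of 13 such relatives *hspa4l* alone was at -1 or less at 36hpf, against 6.15% of all genes kept (median 0.01). At 72hpf *hspa4l*, *hspa4a* and *hyou1* were at -1 or less, against 9.02% of all genes kept (median -0.42). The lowest at both stages was *hspa4l*, an exchange factor for HSP70, with 676 reads in mutant-labelled and 1177 in sibling-labelled eyes (-1.09) and 6.07 FPKM in mutant-labelled and 25.5 FPKM in sibling-labelled eyes (-1.91). A further HSP70 gene, listed as *si:ch211-199o1.2* and called *hspa1b* in RefSeq, was looked up after the other values were seen and had 57 reads in each genotype (-0.29, interval -0.85 to 0.26), then 0.715 FPKM in mutant-labelled and 2.11 FPKM in sibling-labelled eyes (-0.86).

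Among 3 other HSP90 genes none was at -1 or less or at 1 or more at 36hpf, against 6.15% and 8.9% of all genes kept (median 0.01). *hsp90ab1*, the constitutive cytosolic form, had 717879 reads in mutant-labelled and 494287 in sibling-labelled eyes (0.24). At 72hpf it stood far above the HSP90 alpha genes per length, with 1780 FPKM in mutant-labelled and 884 FPKM in sibling-labelled eyes (1.01), while the endoplasmic *hsp90b1* (-0.60) and the mitochondrial *trap1* (-0.66) were lower in mutant-labelled eyes. Only 5 of 11 other small heat shock protein genes in the 36hpf table and 3 of 11 in the 72hpf table passed the minimum. *cryaa*, the lens alpha A crystallin, had 95 reads in mutant-labelled and 2849 in sibling-labelled eyes (-5.19, interval -5.51 to -4.91) and 126 FPKM in mutant-labelled and 204 FPKM in sibling-labelled eyes (-0.69), and the other 4 genes kept at 36hpf lay between -0.50 and 0.57. The muscle-enriched *hspb7* had 2.31 FPKM in mutant-labelled and 0.506 FPKM in sibling-labelled eyes (1.14), and *hspb8* had 2.37 FPKM in mutant-labelled and 0.69 FPKM in sibling-labelled eyes (1.0), both kept through the mutant-labelled library alone.

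J-domain genes of classes A and B other than *dnajb1b* had medians of -0.22 at 36hpf and -0.35 at 72hpf, against 0.01 and 0.02 over all genes kept. Below 0 lay 15 of 18 and 14 of 17, but the share of all genes below 0 was not counted. At 36hpf *dnajb6b*, *dnajb2*, *dnaja4* and *dnaja1* of the 18 were at -1 or less, against 6.15% of all genes kept. At 72hpf *dnajb1a* alone was at -1 or less, against 9.02%. *dnajb6b*, a suppressor of protein aggregation, had 1516 reads in mutant-labelled and 4035 in sibling-labelled eyes (-1.71), and *dnajb2* had 294 reads in mutant-labelled and 661 in sibling-labelled eyes (-1.46). Of 21 co-chaperone genes at 36hpf, *unc45b* lay at -1 and *bag2* at 1 or more, against 6.15% and 8.9% of all genes kept (median -0.08). Of 22 at 72hpf *fkbp5* lay at -1 or less and *bag3* at 1 or more, against 9.02% and 3.65% of all genes kept (median -0.12). *bag2*, an HSP70 exchange factor, had 122 reads in mutant-labelled and 35 in sibling-labelled eyes at 36hpf (1.5). *fkbp5*, a partner of HSP90 in steroid receptor complexes, had 0.707 FPKM in mutant-labelled and 9.08 FPKM in sibling-labelled eyes (-2.56). It was kept through the sibling-labelled library alone. *bag3*, named here after its value was seen, had 2.86 FPKM in mutant-labelled and 0.919 FPKM in sibling-labelled eyes (1.01). It was kept through the mutant-labelled library alone, so for both genes the filter set the direction. The 16 chaperonin and prefoldin genes stayed between -0.20 and 0.19 at 36hpf (median -0.06) and between -0.93 and 0.54 at 72hpf (median 0.20).

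**Figure D4:**
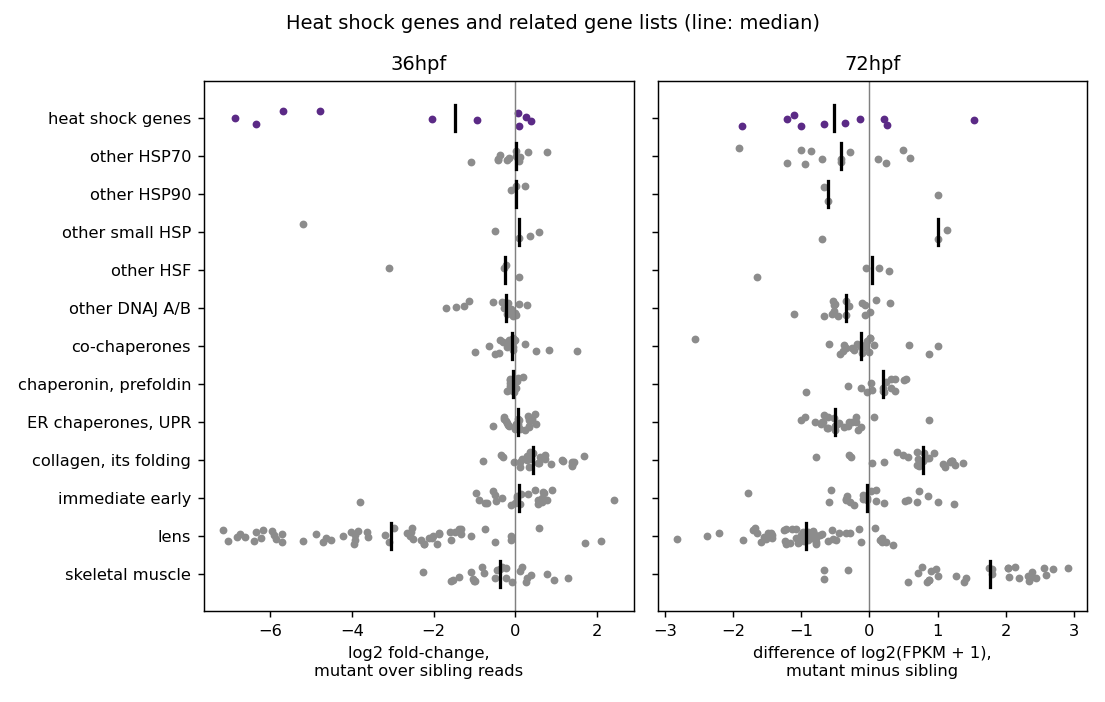
Change of each gene kept, mutant-labelled against sibling-labelled eyes, for the 10 heat shock genes (top row) and 12 other gene lists at 36hpf (left, log2 fold-change) and 72hpf (right, difference of log2(FPKM + 1)), with the median of each list as a vertical line. The heat shock genes have medians of -1.49 and -0.52, the chaperonin and prefoldin list of -0.06 and 0.20, the lens list of -3.03 and -0.93, and the muscle list of -0.39 and 1.77.

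Genes of the endoplasmic reticulum's own chaperone system had medians of 0.07 at 36hpf and -0.50 at 72hpf, against 0.01 and 0.02 over all genes kept. At 36hpf none of 25 was at -1 or less or at 1 or more, against 6.15% and 8.9% of all genes kept. At 72hpf 23 of 25 were below 0, but the share of all genes below 0 was not counted. There *hyou1* alone was at -1 or less, against 9.02% of all genes kept. *hspa5*, its HSP70, had 61.2 FPKM in mutant-labelled and 118 FPKM in sibling-labelled eyes at 72hpf (-0.94), and *hyou1*, its exchange factor, had 15.4 FPKM in mutant-labelled and 32.1 FPKM in sibling-labelled eyes (-1.01), whereas *ddit3* (Chop), a factor of the unfolded protein response, had 22.9 FPKM in mutant-labelled and 12.1 FPKM in sibling-labelled eyes (0.87).

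Immediate early and stress genes, which respond quickly when tissue is handled, lay on both sides of 0 at both stages. Of 26 kept at 36hpf *egr3* lay at -2 or less and *egr2b* at 2 or more, against 1.4% and 1.77% of all genes kept (median 0.08). Both were named after their values were seen and had few reads. Of 23 kept at 72hpf *egr1* lay at -1 or less and *hmox1a* and *ier5l* at 1 or more, against 9.02% and 3.65% of all genes kept (median -0.03). *egr1*, an early zinc finger factor, had 431 reads in mutant-labelled and 190 in sibling-labelled eyes (0.89), but 6.87 FPKM in mutant-labelled and 26.1 FPKM in sibling-labelled eyes (-1.78). *dusp1*, a stress-induced phosphatase, had 7904 reads in mutant-labelled and 11890 in sibling-labelled eyes (-0.88), and 43.7 FPKM in mutant-labelled and 25.9 FPKM in sibling-labelled eyes (0.73). The heme oxygenase gene *hmox1a*, another target of cell stress, had 1024 reads in mutant-labelled and 1224 in sibling-labelled eyes (-0.55), and 5.86 FPKM in mutant-labelled and 1.91 FPKM in sibling-labelled eyes (1.24). Their part in the *hsp70* values was not tested. Of 21 retina genes at 36hpf, 8 lay at -1 or below and *pou4f1* alone at 1 or above, against 6.15% and 8.9% of all genes kept (median -0.43). At -2 or below lay *atoh7*, *ptf1a*, *pou4f2*, *neurod4* and *isl1*, against 1.4% of all genes kept. At 72hpf none lay at -1 or below and *atoh7* alone at 1 or above, against 9.02% and 3.65% of all genes kept. The median there was -0.08, with 2430 FPKM in mutant-labelled against 2520 FPKM in sibling-labelled eyes.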

How the data were processed

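Eye RNA of 4 libraries was analysed (1 per genotype and stage). For 36hpf the authors mapped reads to GRCz10 with CLC Genomics Workbench 9.0.1. The deposited table is headed FPKM, yet it holds expected counts, each the mean of 2 whole counts, and the authors' log2 columns are the mean log2 of the same counts. From both, the 2 counts were recovered except for 564 genes in mutant-labelled and 649 in sibling-labelled eyes, the larger counts holding 63.8% and 58.6% of reads. Larger and smaller were sorted within each gene and genotype, so neither need be 1 run or library. The 2 counts were summed, which needed no rounding, and were taken as 1 sample. For 72hpf the authors deposited FPKM made with TopHat and Cufflinks (no source used here gives their versions; the submitters' processing notes name FastQC too). A deposited list of 883 genes holds the authors' own comparison and was not used; its FPKM equal those of the full table.

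Summed counts were scaled by TMM (edgeR 4.0.16, effective sizes 107941030 for mutant-labelled and 88028822 for sibling-labelled eyes), a log2 fold-change was taken after adding 0.5 reads (scaled to each library), and a minimum of 20 reads in all left 21876 genes. Folds were taken from scaled reads with nothing added. At 72hpf 17307 genes with at least 1 FPKM in either library were kept, and 489 symbols on several rows were left out of the lists. Exact (Clopper-Pearson) 95% intervals cover counting error only, since molecules were not marked. With 1 sample per genotype no test was run. No source used here states whether counting used strand, so overlapping antisense reads cannot be told apart. DESeq2 1.42.0 size factors, total reads, other minimums and added values, either count alone and summed *hsp70* genes were alternatives, and leaving out the picked genes was added after seeing the data. Steps were tested on simulated counts (R 4.3.3, Python 3.11.15).

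The 10 genes and the 14 other lists (other HSP70, HSP90, small heat shock, heat shock factor, J-domain, co-chaperone, chaperonin, endoplasmic reticulum, collagen, immediate early, lens, muscle, retina, and epidermis with hatching gland) were chosen with earlier results of these data known. All 10 genes are named, with the 5 genes most like the *hsp70* family. Of each other list, up to 4 genes were planned to be named. These were the 2 highest and 2 lowest changes among genes with at least 100 reads or 5 FPKM. Not all of these are named, and other genes of the lists are, so the named genes need not show both ends of a list. The 4 other heat shock factor and binding protein genes kept had 1 at -2 or less at 36hpf, against 1.4% of all genes kept (median -0.26). At 72hpf 1 of them was at -1 or less, against 9.02% of all genes kept (median 0.04). Some genes stand in more than 1 list, such as *cryaa* and *hsf4* with lens.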

Additional observations from a re-analysis of the deposited data

Results flagged for a closer look

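*hsf1* was a little higher in mutant-labelled eyes at 36hpf (log2 fold-change 0.09) and a little lower at 72hpf (log2 difference -0.14), so it pointed in opposite directions at the stages. With 1 sample per genotype this difference between stages was not tested, and the values come from differently processed tables.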

How the results depend on the processing

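No paired analysis was possible because the labels give 1 sample per genotype and stage and no replicate numbers. Every gene kept its direction under each alternative run, except *hsp90aa1.1* at 36hpf, which was -0.01 with the smaller counts alone. With those counts *hsp70.3* was -5.86, and with FPKM + 0.1 *hsp90aa1.1* at 72hpf was 2.45. With the *hsp70* genes summed to 1 value, 2 values were at -2 or less and 2 at -1 or less at 36hpf (median 0.07), and the 72hpf median was -0.14. Over the 6 genes not picked for low reads, an alternative chosen after seeing the data, 1 was at -2 or less and 1 at -1 or less at 36hpf (median 0.08), and 1 was at -1 or less at 72hpf (median 0.04). With FPKM + 0.1 or rescaled FPKM, 4 of the 10 genes were at -1 or less at 72hpf. With at least 5 FPKM, 0 genes were at 1 or more at 72hpf and the median was -0.67, because *hsp90aa1.1* was not kept. Over all genes at 36hpf, 307 lay at -2 or below and 387 at 2 or above, against 829 and 1006 with no filter and 179 and 235 with at least 100 reads. At 72hpf the counts of 307 and 44 became 646 and 181 with FPKM + 0.1. Depth limits *hsp70.1* most, with 1 read in mutant-labelled eyes, and its log2 fold-change ran between -6.86 and -5.82 over the alternatives.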
